A study of Homo sapiens with 688 samples.

Results

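Wells of U87 cells that had received an inhibitor of cyclin-dependent kinases (CDKs) were selected by their drug label. Of 16 inhibitor names searched, 2 were found, palbociclib (labelled Palbociclib (PD-0332991) HCl) and ryuvidine, and the other 14 had no well. The members were therefore 4 wells, 2 of each compound, of the 688 samples of the series, of its 384 U87 wells and of its 184 compounds applied to U87 cells. Both are inhibitors of CDK4, and palbociclib also inhibits CDK6. No well carried a name of the CDK9 type (flavopiridol, dinaciclib, SNS-032, AT7519), so that class is represented here only by P276-00, a flavone that inhibits several CDKs including CDK9, whose wells were not selected by the names and are shown for comparison.

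The series profiled poly(A) RNA by PLATE-Seq, a method in which the RNA of each well is captured on oligo(dT), reverse transcribed with a well-specific barcode, pooled and read at the 3′ end. U87 is an established human glioblastoma line. Compounds were dosed for 24 h, at concentrations chosen, per the labels, to leave most cells viable, and each lysate was pooled from wells of a larger culture plate. Palbociclib was at 0.1 µM on compound set 1 and ryuvidine at 3.5643 µM on compound set 4, each in 1 well of plate A and 1 well of plate B. Each set of 92 compounds also held 4 wells of the vehicle DMSO and 4 untreated wells, evenly divided between its plates. No allele or other treatment distinguished the groups, and all were the same line. The duplicates of a compound share a well number, hence a position and barcode, and nothing in the labels says that wells came from separate cultures, so p-values measure the spread between these wells.

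CDK4 and CDK6 bind D-type cyclins and phosphorylate the retinoblastoma protein RB, which otherwise keeps the E2F transcription factors inactive. E2F factors drive the genes of DNA replication at the G1/S transition, and the genes of mitosis are switched on later by the MuvB complex with B-MYB and FOXM1 and are repressed in arrested cells. CDK9 acts elsewhere: it releases paused RNA polymerase II, and its inhibition is known for the loss of short-lived transcripts. Palbociclib is a pyridopyrimidine selective for CDK4 and CDK6, whereas ryuvidine is a quinone for which other targets have also been described.

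The palbociclib wells held 554808 and 773296 counts and the DMSO wells of their plates 445250 to 588082 counts. The ryuvidine wells held 390720 and 451622 counts, below the 672411 to 799631 counts of their DMSO wells. Values below are CPM, the counts of a gene scaled to the total of its well, and differences are log2 fold changes with the plate as a term, called at an adjusted p-value below 0.05. The U87 markers VIM, CD44, FN1, SPARC, TNC and CHI3L1 were detected in the wells of both compounds, with a summed level of 4142 to 5708 CPM with palbociclib (DMSO 4461 to 5381) and 1253 to 2526 CPM with ryuvidine (DMSO 1776 to 3865). The prostate markers KLK3 and KLK2 and the epithelial marker CDH1 were at 0 in all of these wells. In lysates of whole wells, fewer cells in a phase of the cycle and less RNA per cell cannot be told apart.

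In the palbociclib wells 38 of 54 tested genes of mitosis and 15 of 41 of DNA replication were lower, and cyclin D1 was higher. Of 7590 genes tested, 259 (3.41%) were called against DMSO, 165 lower (2.17%) and 94 higher (1.24%). Limma-voom called 182 lower and 202 higher, so the excess of lower calls was not found with it. Genes of 3 cell cycle lists made up 56 of the 165 lower genes and 1 of the 94 higher genes, beside 112 of the 7590 tested genes. Of the 165, 121 changed by at least 2-fold, beside 612 of the 7590 tested genes. All 165 lay below both DMSO wells of their own plate in each plate. Of all tested genes, 2420 lay above or below them in both plates. The plate is a term of the test that called the 165, so this adds no separate support. The number of calls was 93 without the plate A well and 96 without the plate B well.

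Among the cyclins, CDKs and their regulators, 7 of 21 tested genes were lower and 1 was higher, with a median log2 fold change of -0.99 beside 0.01 over all genes. The 7 were CCNA2, CCNB1, CCNB2, CCNE2, CDK1, CDKN1A and E2F2. CCND1, which encodes the cyclin D1 partner of CDK4 and CDK6, was at 431 and 974 CPM in the palbociclib wells of plates A and B, against 211 and 208 CPM in the DMSO wells of plate A and 399.6 and 393 CPM in those of plate B. Both palbociclib wells were above all 4 DMSO wells, although untreated wells of plate B reached 552 CPM, and CCND1 rose by 1.27 ± 0.15 (log2 fold change ± SE, adjusted p = 1.17e-07). CDK4 itself, the target of both compounds, was at 149.6 and 147 CPM with palbociclib and 109 to 243 CPM with DMSO, a difference of -0.05 ± 0.22 that was not called and whose sign turned under 3 of the alternative settings. E2F1, the activator held by RB, was at 43.3 and 42.7 CPM against 119, 55.7, 129 and 59.2 CPM. Both wells were below all DMSO wells, but the DMSO wells of each plate differed by about as much, and the difference of -0.99 (95% confidence interval -1.71 to -0.27) was not called, with an adjusted p = 0.138. CCNE2, which encodes a cyclin E, had 2 counts in the palbociclib wells together, a ratio to DMSO of 0.0595 with a counting interval of 0.00720 to 0.215. Its DMSO wells were uneven, at 15.7, 4.13, 62.9 and 12.2 CPM, and without the highest of them the difference was -2.74 in place of -3.76 and not called (adjusted p = 0.248). The call was lost under 5 of 12 alternative settings. E2F2, named after its values were seen, had 0 counts in both palbociclib wells and 6.19 to 17.4 CPM with DMSO, at least 5.36-fold lower with a floor of 3 counts over both wells, and was also at 0 in 1 untreated well. CDKN1A, which encodes the CDK inhibitor p21, was at 189 and 326 CPM against 263, 363, 464 and 611 CPM. Each well was below the DMSO wells of its own plate, and the fall of -0.63 ± 0.18 just passed the test (adjusted p = 0.0418). It was not called under 6 of 15 alternative settings, without either palbociclib well among them (adjusted p up to 0.738).

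Of 41 tested E2F targets of G1/S and replication, 15 were lower and the other 26 were not called, and the median was -1.03. RRM2, the regulated subunit of ribonucleotide reductase, was at 27.0 and 42.7 CPM with palbociclib and 168, 276, 393 and 372 CPM with DMSO. It fell by 3.03 ± 0.27 on the log2 scale (adjusted p = 7.45e-10), and in 92 compounds of the set its mean deviation was the lowest. Thymidine kinase TK1 was at 10.8 and 49.1 CPM against 112, 70.1, 242 and 130 CPM and fell by 2.12 ± 0.33 on the log2 scale. BRCA1, RRM1, the clamp loader subunit RFC3 and the helicase subunit MCM7 fell by 2.12, 1.58, 1.29 and 1.19. The abundant members DUT, PCNA and MCM4 were also called lower, by -0.81, -0.85 and -1.10. MCM4 and PCNA were not called under 5 and DUT under 4 of 15 alternative settings.

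The genes of G2/M had the lowest median of the 10 lists. Of 54 tested genes controlled by FOXM1 and MuvB, 38 were lower, the other 16 were not called, and all 54 had a fold change below 0, with a median of -1.91. CCNB1, which encodes cyclin B1, was at 39.6 and 59.5 CPM in the palbociclib wells and at 162, 155, 255 and 179 CPM in the DMSO wells. The groups did not overlap, and CCNB1 fell by 1.83 ± 0.24 on the log2 scale (adjusted p = 1.28e-06). CDK1, the kinase that cyclin B1 activates, was at 7.21 and 18.1 CPM against 135, 157, 228 and 221 CPM and fell by 3.72 ± 0.30. TOP2A, the topoisomerase of condensing chromosomes, was at 34.2 and 49.1 CPM against 171, 189.7, 384 and 360.2 CPM. The proliferation marker MKI67 and the spindle protein NUSAP1 fell by 2.65 and 2.59. PTTG1, which encodes securin and was the most abundant of the list, was at 329.8 and 252 CPM against 713 to 1122 CPM and fell by 1.56 ± 0.15. Among all called genes of sufficient level, those that fell furthest were also genes of mitosis, at the limit of the counts. The kinesin gene KIF2C had 2 counts in both palbociclib wells together (ratio to DMSO 0.0202, counting interval 0.00245 to 0.0730). NUF2, KIF18B and AURKB had 3 counts each, with ratios of 0.0498, 0.0478 and 0.0570 and counting intervals that reached 0.167. CDCA3, NDC80, TROAP and ASPM, with 4 to 15 counts in both wells together, had log2 fold changes of -4.37, -3.47, -3.26 and -3.15.

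**Figure D1:**
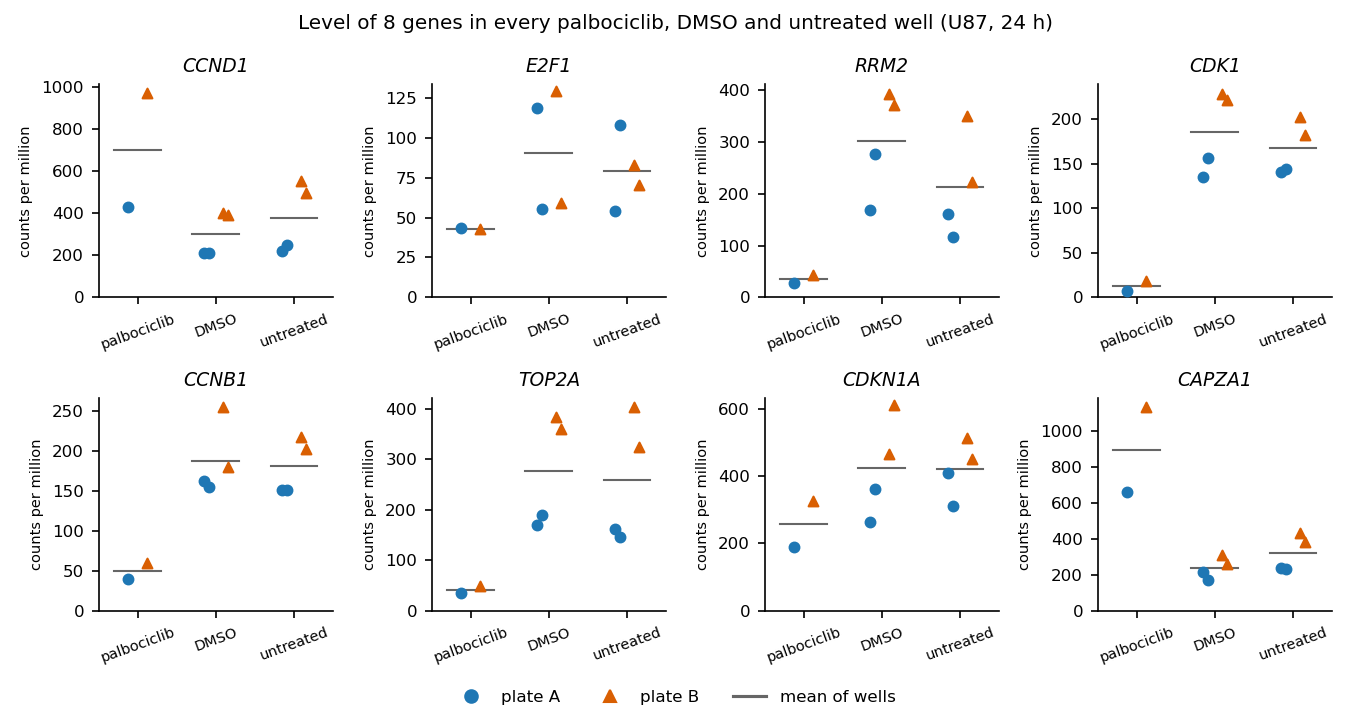
Levels of 8 genes in CPM (vertical axes, from 0) in each palbociclib, DMSO and untreated well, with circles for plate A, triangles for plate B and lines for the mean of the wells. CDK1 stays at or below 18.1 CPM in both palbociclib wells while every DMSO well is at 135 CPM or more, E2F1 lies below the lower DMSO well of each plate, and CCND1 and CAPZA1 are higher in both palbociclib wells than in any DMSO well.

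The promoters below, the 250 bases before the gene start in RefSeq (GRCh38.p14), show letters known from such genes. Capitals mark matches on either strand to the cell cycle homology element (CHR, TTTGAA), the CCAAT box (CCAAT) or the E2F site (TTTCCCGC, TTTCGCGC, TTTGCCGC or TTTGGCGC), and no 2 matches overlap.
CCNB1, chr5:69166900-69167149 (plus strand): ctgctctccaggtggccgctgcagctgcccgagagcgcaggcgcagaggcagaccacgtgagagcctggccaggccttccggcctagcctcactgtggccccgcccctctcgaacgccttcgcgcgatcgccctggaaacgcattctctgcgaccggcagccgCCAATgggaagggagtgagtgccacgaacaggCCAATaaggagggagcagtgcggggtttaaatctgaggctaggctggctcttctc
CDK1, chr10:60778081-60778330 (plus strand): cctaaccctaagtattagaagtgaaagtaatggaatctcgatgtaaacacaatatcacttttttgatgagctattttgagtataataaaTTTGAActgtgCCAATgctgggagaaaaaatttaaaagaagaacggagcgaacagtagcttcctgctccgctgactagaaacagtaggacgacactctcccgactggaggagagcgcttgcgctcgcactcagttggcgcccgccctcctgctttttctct
RFC3, chr13:33817899-33818148 (plus strand): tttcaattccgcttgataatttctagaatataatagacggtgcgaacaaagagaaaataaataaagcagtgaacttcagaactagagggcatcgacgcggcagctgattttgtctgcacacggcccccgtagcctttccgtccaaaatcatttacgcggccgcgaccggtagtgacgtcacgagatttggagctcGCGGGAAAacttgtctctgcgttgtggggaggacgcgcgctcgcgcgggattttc
CDK1 holds a CHR and a CCAAT box, CCNB1 a pair of CCAAT boxes, and RFC3 an E2F match on the opposite strand. In windows of 300 bases that run 50 bases past the start, the CHR letters were in 47 of the 129 lower genes that had a RefSeq entry (36.4%), 9.70% of the tested genes and 15.4% of all promoters. The CCAAT letters were in 59.7% of the lower genes, 37.2% of the tested genes and 35.7% of all promoters, and the E2F letters in 15.5%, 5.89% and 3.33%. Among the higher genes these shares were 6.06%, 34.8% and 4.55%. A match is a description of the letters and not a bound site.

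In each of the other 7 lists, 0 to 2 genes were called with palbociclib. Of 34 tested CDK9-dependent short-lived transcripts, CCND1 alone was called, and the median was 0.07. Of 26 targets of NRF2, the activator of antioxidant genes, the ferritin heavy chain FTH1 alone was higher (0.71 ± 0.12), with a median of 0.15. Of 27 genes of the ATF4 stress response, the serine synthesis gene PHGDH alone was lower (-1.10 ± 0.21), and of 21 p53 targets CDKN1A alone was called, with a median of -0.38. By edgeR 0 of 22 heat shock genes and 0 of 17 cholesterol synthesis genes were called, as by DESeq2, while 4 and 1 had an unadjusted p-value below 0.05 and limma-voom called 1 heat shock gene. Of 8 metallothioneins, MT2A (0.75 ± 0.15) and MT1E (0.56 ± 0.14) were higher, and the median of the 8 was 0.57. MT2A made up 8.87% and 6.57% of the counts of the palbociclib wells and 4.03% to 5.84% of those of the DMSO wells, and against the other compounds its difference was -0.11 and not called. The MT2A call against DMSO was lost under 6 of 14 alternative settings.

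Among the rises, CAPZA1, a subunit of the actin capping protein, was at 659.7 and 1138 CPM with palbociclib and 171 to 311 CPM with DMSO, and rose by 1.98 ± 0.15 (adjusted p = 1.32e-11). Beyond it, the list of largest rises held DMXL2, ALKBH2, EIF2A, NIPSNAP1, CDC73, DDX42, COL15A1, MYO1D and TIFA, with rises from 1.66 to 2.77. CDC73, MYO1D and ALKBH2 were each not called under 6 or more of their alternative settings, and CAPZA1 was called under all 15. In the wells of the same number on compound set 4, which held triciribine, 81 of the 94 higher genes lay above the median of the other compounds, with a median deviation of 0.40, beside 4449 of the 7590 tested genes and a median of 0.07. CAPZA1 deviated there by 0.82, DDX42 by 1.23, MAPK3 by 0.97 and ALKBH2 by 1.13, in each case the highest of 92 compounds there, and CCND1 by 0.61. ALKBH2 deviated by 0.57 in the palbociclib wells. Of the 165 lower genes 91 lay below and 74 above, with a median of -0.03, beside 3140 of the tested genes below. Triciribine and the well number cannot be told apart in these values, and the part of the well number in the rises was not tested.

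Set against the 182 wells of the other 91 compounds, 45 of 10032 genes (0.449%) were called for palbociclib, 33 lower (0.329%) and 12 higher (0.12%). Here and for ryuvidine, the other compounds were pooled as a group and are not replicates of a condition. The spread in this test is therefore largely that between compounds. Without the plate A or the plate B well 5 were called, and with the 8 wells of low depth left out 84. Of the 57 G2/M genes 13 were lower (median -1.85), of 47 E2F targets 3 (median -0.89) and of 25 genes of the cyclin and CDK list 1, CDK1. The 5 with the smallest p were STMN1, CDK1, TROAP, RRM2 and PTTG1, of which STMN1, encoding the microtubule destabiliser stathmin, was at 137 and 195 CPM against 534 to 855 CPM in DMSO. The higher genes with the smallest p were CAPZA1, MAPK3, VCL, AP2M1 and CCNY. CCNB1 differed by -1.85, the fifth lowest of 92, and was not called (adjusted p = 0.0559).

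As a profile, the G2/M list of palbociclib had a median deviation of -1.63 and -1.49 in plates A and B, the third lowest of 92 compounds after belinostat and romidepsin, where the median compound was at 0.10. The E2F list (-0.79) was the eighth lowest, and the p53 list (-0.40) and the ATF4 list (-0.31) were each the third lowest. Across 4318 genes the deviations of the 2 palbociclib wells had a Pearson correlation of 0.55, the ninth highest among 92 duplicates, whose median was 0.31. The compounds whose profile was most like it were epirubicin (mean r = 0.30), teniposide (0.25) and etoposide (0.22). These correlations are across genes, each between a well of plate A and a well of plate B, and are given as a description. The duplicates of a compound share a well number. The mean profile of the palbociclib wells had a correlation of 0.24 with that of the triciribine wells of the same number. This was rank 7 from the highest of 92 well numbers. The part of the well number in these correlations was not tested.

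**Figure D2:**
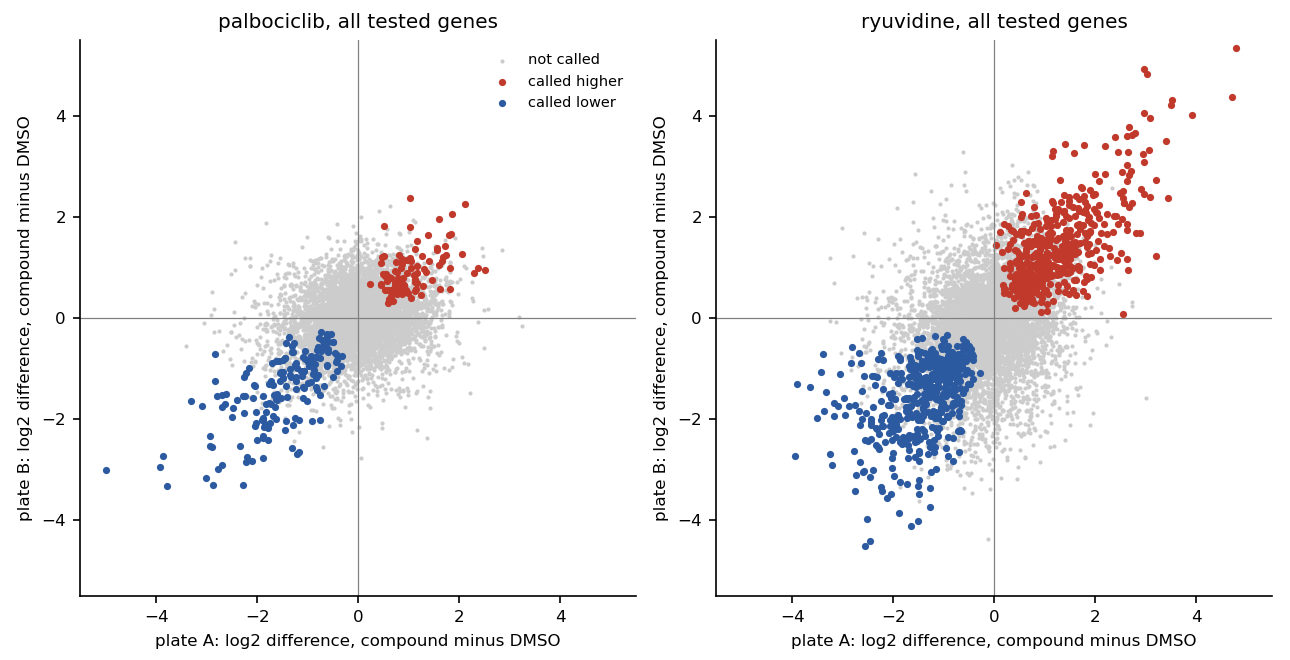
Difference from the DMSO wells of the same plate for every tested gene in log2 units, with plate A on the horizontal and plate B on the vertical axis, for palbociclib (left) and ryuvidine (right). Genes called higher (red) and lower (blue) lie in the upper right and lower left quadrants, and the ryuvidine calls are more numerous on both sides, 468 and 465, than those of palbociclib, 94 and 165.

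In the ryuvidine wells 28 of 56 tested genes of mitosis and 17 of 40 of DNA replication were lower, and 20 of 29 genes of oxidative stress and 22 of 29 of amino acid stress were higher. Of 8165 genes tested, 933 (11.4%) were called against DMSO, 468 higher (5.73%) and 465 lower (5.7%). Of these, 331 and 341 changed by at least 2-fold, beside 1736 of the 8165 tested genes. Without the plate A well 490 genes were called, and without the plate B well 354. The doses and plates of both compounds differ, so their values stand side by side and 0 pairs of compounds were compared by a test.

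Among the cyclins, CDKs and their regulators, 5 of 20 tested genes were lower and 1 was higher, with a median of -1.14 beside -0.02 over all genes. CDKN1A, which encodes p21, was at 2250 and 1603 CPM with ryuvidine and 694 to 867 CPM with DMSO, and rose by 1.35 ± 0.13 (adjusted p = 1.36e-08). The 5 lower genes were CCNB1, CDK1, CCNB2, CCNA2 and the E2F partner TFDP1. CCND1 was at 448 and 299 CPM against 364, 480.1, 222 and 215 CPM and CDK4 at 356 and 314 CPM against 226 to 358 CPM. Neither was called, with differences of 0.32 ± 0.20 and 0.23 ± 0.19. E2F1 was at 43.5 and 144 CPM against 155, 153, 259 and 98.8 CPM. The plate B well lay within the range of the DMSO wells, and the difference of -0.84 (95% confidence interval -1.62 to -0.05) was not called, with an adjusted p = 0.173.

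Of 40 tested E2F targets 17 were lower and the other 23 not called, with a median of -1.04. RRM2 was at 69.1 and 46.5 CPM against 302, 338, 155 and 214 CPM and fell by 2.06 ± 0.25, TK1 by 1.63, MCM4 by 1.36 and RFC3 by 1.34. MCM10, a factor that activates the replicative helicase, had 4 counts in both wells together and fell by 2.89 ± 0.63. GINS2, a subunit of that helicase, had 2 counts, a ratio to DMSO of 0.0519 (counting interval 0.00629 to 0.188). Of 56 tested G2/M genes 28 were lower and the other 28 not called, with a median of -1.52. CCNB1 was at 56.3 and 28.8 CPM against 211, 242, 123 and 164 CPM, below all DMSO wells, and fell by 2.10 ± 0.28 (adjusted p = 2.81e-06). CDK1 fell by 1.52 ± 0.25, from 125 to 324 CPM in DMSO to 102 and 42.1 CPM. The mitotic kinase AURKA, TOP2A, NUSAP1 and the kinesin KIF20B fell by 1.93, 1.86, 1.87 and 1.69.

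The targets of NRF2 stood out on the other side. Of 29 tested, 20 were higher and the other 9 not called, all 29 had a fold change above 0, and the median was 1.60. HMOX1, heme oxygenase 1, was at 673 and 476 CPM with ryuvidine and 149, 212, 149 and 153 CPM with DMSO, and rose by 1.83 ± 0.18 (adjusted p = 1.31e-08). SRXN1, the sulfiredoxin that repairs oxidised peroxiredoxins, was at 322 and 77.5 CPM against 31.1, 36.8, 2.97 and 8.75 CPM. Both wells were above all DMSO wells although the plates differed in level, and it rose by 3.41 ± 0.36. The thioredoxin reductase TXNRD1 rose by 2.27, the autophagy receptor SQSTM1 by 2.59, and the ferritin chains FTL and FTH1 by 2.04 and 1.72. GCLM, the modifier subunit of glutathione synthesis, was chosen after its values were seen because its promoter holds the element below, and rose by 1.17 ± 0.30 (adjusted p = 0.00908), a call lost under 3 of 15 alternative settings, without either ryuvidine well and without the plate term.

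The genes of the ATF4 response to amino acid and endoplasmic reticulum stress were mostly higher too. Of 29 tested, 22 were higher, 1 was lower (VEGFA) and 6 were not called, with a median of 1.90. SESN2, a sestrin that restrains growth signalling, was at 596 and 629 CPM against 77.5 to 86.7 CPM and rose by 2.94 ± 0.23 (adjusted p = 1.15e-10). ATF3, a stress-induced transcription factor, was at 220.1 and 436 CPM against 12.8 to 62.5 CPM and rose by 3.10 ± 0.27. The amino acid transporter subunit SLC3A2 rose by 3.23, the phosphatase subunit PPP1R15A by 2.26, and the tRNA synthetase genes GARS and WARS by 2.12 and 1.76. CHAC1, which degrades glutathione and was also chosen after its values were seen, was at 151 and 173 CPM against 4.46 to 15.5 CPM and rose by 3.78 ± 0.43. The lists share members: SESN2 stands also among the p53 targets, and VEGFA is a hypoxia gene too.

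Promoters of a gene of each list are shown in the same way, with capitals for the antioxidant response element (ARE, TGACNNNGC) in GCLM and for the amino acid response element (CARE, TGATGNAA) in CHAC1, both found on the opposite strand.
GCLM, chr1:93909431-93909680 (minus strand): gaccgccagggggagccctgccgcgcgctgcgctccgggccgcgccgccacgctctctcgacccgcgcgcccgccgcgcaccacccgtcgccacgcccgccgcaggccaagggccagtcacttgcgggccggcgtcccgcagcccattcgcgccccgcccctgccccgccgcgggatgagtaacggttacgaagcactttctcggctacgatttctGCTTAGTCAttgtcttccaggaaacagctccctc
CHAC1, chr15:40953221-40953470 (plus strand): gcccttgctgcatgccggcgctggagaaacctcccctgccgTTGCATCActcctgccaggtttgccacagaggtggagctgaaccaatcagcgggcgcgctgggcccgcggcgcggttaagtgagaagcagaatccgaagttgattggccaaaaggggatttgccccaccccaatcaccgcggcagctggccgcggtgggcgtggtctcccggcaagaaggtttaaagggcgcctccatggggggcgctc
The CARE letters were in 12 of the 340 higher genes with an entry (3.53%), in 1.66% of the tested genes and in 3.67% of all promoters, and in 6 of 22 promoters of the ATF4 list. The ARE letters were in 20.3% of the higher genes, 15.6% of the tested genes and 13.6% of all promoters, and in 6 of 23 promoters of the NRF2 list. Many elements of these genes lie further from the start than the window reaches.

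**Figure D3:**
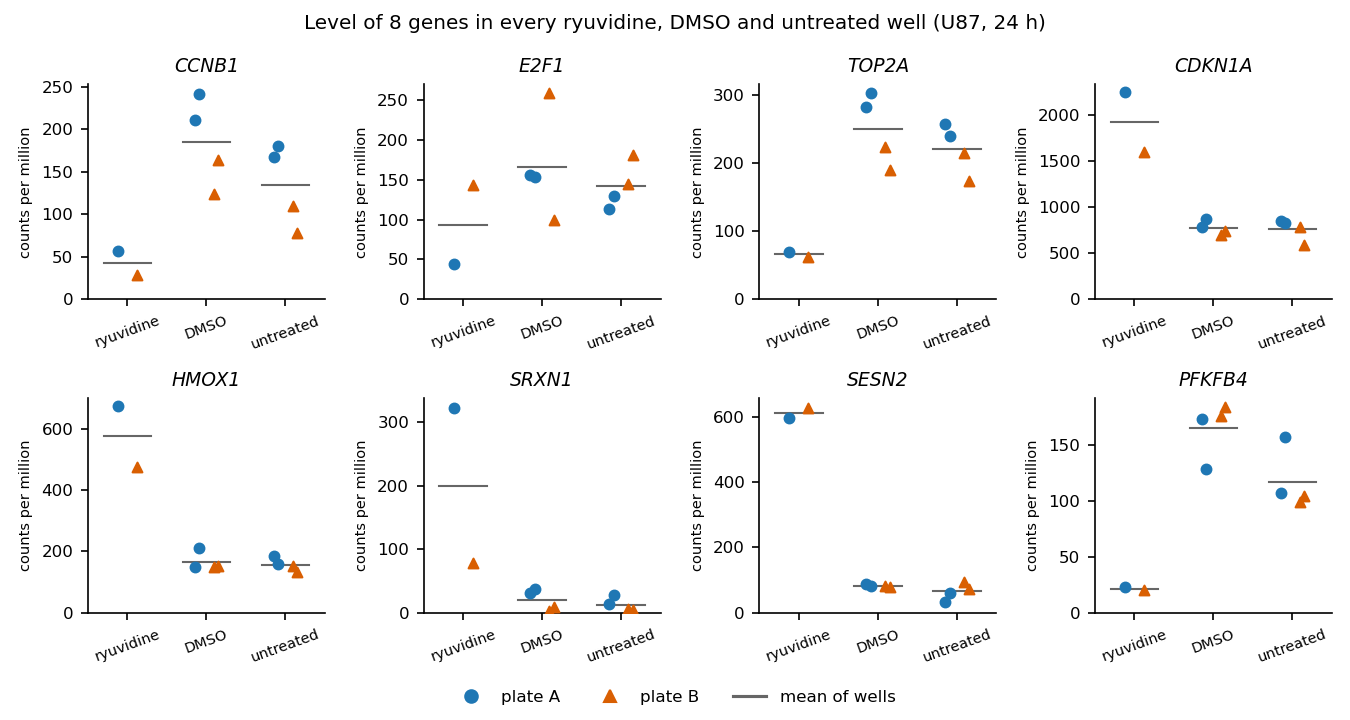
Levels of 8 genes in CPM (vertical axes, from 0) in each ryuvidine, DMSO and untreated well, with circles for plate A, triangles for plate B and lines for the mean of the wells. CCNB1 and TOP2A are lower and CDKN1A, HMOX1, SRXN1 and SESN2 higher in both ryuvidine wells than in any DMSO well, E2F1 overlaps with DMSO, and PFKFB4 is at 23.0 and 19.9 CPM.

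Of 23 tested p53 targets 7 were higher and the other 16 not called, with a median of 0.66. They included CDKN1A, SESN2, the cytokine GDF15 (719 and 554 CPM against 12.8 to 40.1 CPM, a rise of 4.63 ± 0.27) and GADD45A (1.49 ± 0.24). GDF15, SESN2 and GADD45A are also known to be induced by ATF4. Of 8 metallothioneins 5 were higher, led by MT1G (576 and 914 CPM against 83.6 to 189 CPM), and the brain form MT3 was lower (46.1 and 8.86 CPM against 52.5 to 169.5 CPM). The MT1 genes are close copies of each other. Their values here and with palbociclib are uncertain, since reads that fit several genes equally were not counted. Of 35 CDK9-dependent short-lived transcripts 5 were higher, among them DUSP5 (2.65 ± 0.34) and ATF3, and 2 lower, ID1 (-0.87 ± 0.16) and ID3, with a median of 0.17. Of 20 heat shock genes 2 were higher, among them DNAJB1 (0.49 ± 0.16), and of 17 cholesterol synthesis genes 2 were lower, among them EBP. DNAJB1 was not called under 10 of 15 alternative settings and EBP under 5.

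The largest rises began at levels near 0 in DMSO. LCN2, a siderophore-binding lipocalin, was at 23.0 and 50.9 CPM with ryuvidine, at 1.49 CPM in 1 DMSO well and at 0 in the other 3. GCNT3, ADM2, PNLIPRP3 and KLHL24 had at most 4.46 CPM in any DMSO well and rose by 4.28 to 5.69. SPRR2D, an epidermal cornified envelope gene with close copies, was at 284 and 434 CPM against 2.83 to 17.5 CPM and rose by 5.27 ± 0.36, AKR1C1, an aldo-keto reductase with close copies and a target of NRF2, by 4.55 ± 0.57 and the complement receptor C5AR1 by 4.28 ± 0.45. At the other end, KDM5B-AS1, an antisense gene, and ACPL2 had 0 counts in both ryuvidine wells and were at least 7.59-fold and 6.09-fold lower than the DMSO mean, with a floor of 3 counts over both wells. FLJ30403, SAC3D1, NEGR1, MPP4 and SGSM2 had 1 count and MIR210HG and ANGPTL4 had 2 counts in both wells together, with ratios to DMSO of 0.0455 to 0.0570 and counting intervals that reached 0.271. Of the U87 markers, chosen for naming after their values were seen, SPARC fell by 1.06, FN1 by 1.67 and VIM by 0.49 (not called under 7 of 15 alternative settings), and CD44, TNC and CHI3L1 were not called. The part of these in the other differences was not tested.

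Against the 182 wells of the other compounds of its set, 352 of 10796 genes (3.26%) were called for ryuvidine, 223 higher (2.07%) and 129 lower (1.19%), with a median over all genes of -0.12. Without the plate A well 71 were called and without the plate B well 48. Of 31 NRF2 targets 17 were higher (median 1.21), of 30 ATF4 genes 21 (median 1.73), of 57 G2/M genes 12 were lower (median -1.51) and of 49 E2F targets 2. The higher genes with the smallest p were SPRR2D, C5AR1, SRXN1, BEX2 and ATF3, each the highest of 92 compounds. The lower ones were BDKRB1, the kinin receptor, LDHA, DBI, PFKFB4 and TWF1. LDHA, lactate dehydrogenase A, was at 1083 and 443 CPM against 2345 to 5240 CPM in DMSO and was the lowest of 92. In the wells of the same number on set 1, LDHA, TWF1 and PFKFB4 deviated by -0.57, -0.55 and -0.34. BDKRB1 and DBI deviated there by 0.12 and 0.34.

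As profiles, the NRF2 list of ryuvidine (median deviation 1.24 and 1.35 in plates A and B) and its ATF4 list (1.86 and 1.71) were each the highest of 92 compounds, ahead of OTX015 (0.91) and RAF265 (1.11). Its G2/M list (-1.20 and -1.40) was the fifth lowest, behind refametinib, OTX015 and selinexor among others, and its E2F list (-0.87) the seventh lowest. In the wells of its number on set 1, which held lapatinib, the NRF2 list was at 0.04, the ATF4 list at 0.12 and the G2/M list at 0.16. The metallothioneins were at 0.35 in those wells, rank 6 from the highest of 92. The hypoxia list described below was at -0.34, rank 9 from the lowest. The mean profile of the ryuvidine wells had a correlation of 0.26 with that of the lapatinib wells, rank 7 of 92 well numbers. There 311 of the 468 higher genes lay above and 314 of the 465 lower genes below the median of the other compounds, with medians of 0.16 and -0.14, and the part of the well number was not tested. The deviations of the 2 ryuvidine wells had a Pearson correlation of 0.62 across 4113 genes, the tenth highest of 92, and the compounds most like it were RAF265 (0.32), the ribonucleotide reductase inhibitor triapine (0.30) and 2,6-dimethoxyquinone (0.21).

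**Figure D4:**
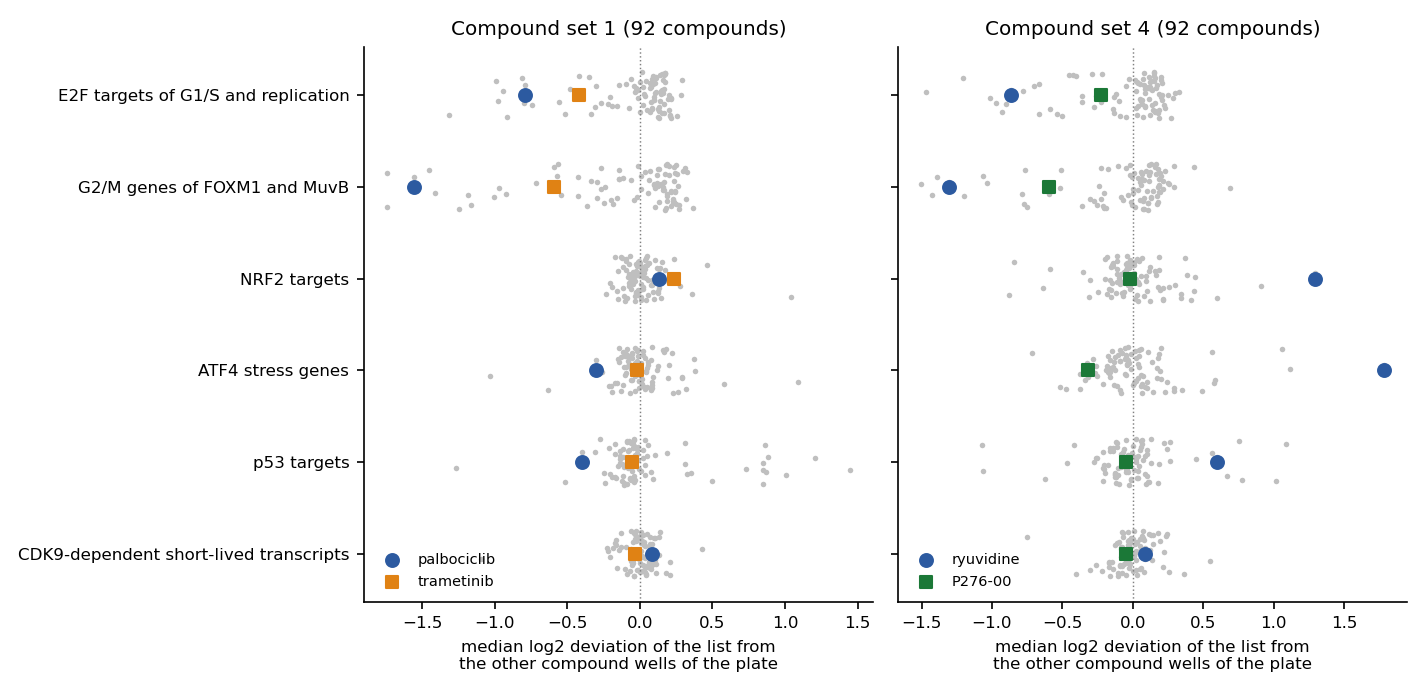
Median log2 deviation of 6 gene lists from the other compound wells of the same plate (horizontal axis) for each of the 92 compounds of set 1 (left) and set 4 (right), averaged over plates A and B, with 1 grey point for each compound, blue circles for palbociclib and ryuvidine and squares for trametinib and P276-00. Palbociclib lies at -1.56 for the G2/M list and at 0.13 for the NRF2 list, and ryuvidine at -1.30 and 1.30.

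Side by side, at their unlike doses, CCNB1 differed from DMSO by -1.83 ± 0.24 with palbociclib and by -2.10 ± 0.28 with ryuvidine, and CDK1 by -3.72 ± 0.30 and -1.52 ± 0.25. Both members have their own DMSO wells, so the lists of called genes share no control. Of the 7291 genes tested for both, 88 were lower with both, which is 53.7% of the 164 of palbociclib and 19.2% of the 459 of ryuvidine. In the other direction 10 were higher with both, 10.6% of 94 and 2.34% of 427. Another 8 of the 164 genes lower with palbociclib were higher with ryuvidine, and 14 of the 94 higher ones were lower. Beside these, 427 of all 7291 genes were higher and 459 lower with ryuvidine. The overlaps were not tested. CDKN1A was among the 8, with the palbociclib call that 6 alternative settings lost. The NRF2 medians were 0.15 and 1.60 and the ATF4 medians -0.16 and 1.90.

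**Figure D5:**
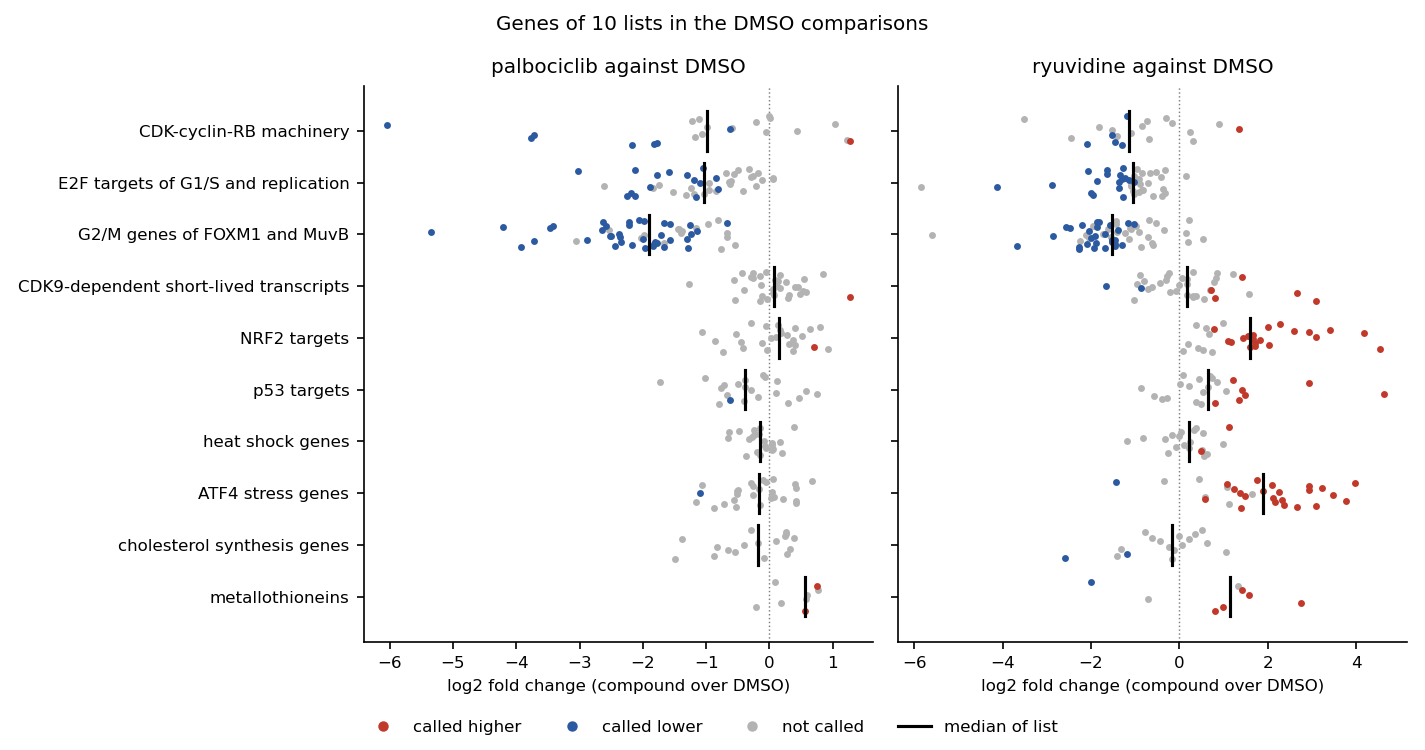
Log2 fold change against DMSO (horizontal axis) of each tested gene of 10 lists (rows) for palbociclib (left) and ryuvidine (right), with red for called higher, blue for called lower, grey for not called and a black bar for the median of the list. The 3 cell cycle lists lie left of 0 for both compounds, with G2/M medians of -1.91 and -1.52, and the NRF2 and ATF4 lists have medians of 1.60 and 1.90 with ryuvidine beside 0.15 and -0.16 with palbociclib.

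Other compounds on the same plates stand beside these values, among them P276-00, itself an inhibitor of CDKs. Each was fitted in the same way against the same DMSO wells as the member of that set. The MEK inhibitor trametinib (0.036 µM, set 1) had 16 of 54 G2/M genes lower (median -0.86), where 3.24% of all genes were lower and 3.13% higher, and 5 of 41 E2F targets (median -0.60), and CCNB1 was at 92.7 and 179.9 CPM, a difference of -0.45 ± 0.21 that was not called. CCND1 differed by -0.20 ± 0.17 with trametinib. P276-00 (0.444 µM, set 4) had 43 genes higher (0.529%) and 50 lower of 8128, with 6 of 56 G2/M genes lower (median -0.61) beside 0.615% of all genes. CCNB1 was at 110.7 and 81.0 CPM with P276-00 (-0.94 ± 0.25, adjusted p = 0.0537), CDK1 fell by 1.19 and RRM2 by 1.73. Of its 36 CDK9-dependent short-lived transcripts 1 was higher and 1 lower, with a median of -0.01, and its plate B well held 308701 counts beside a plate median of 686978.5. NSC 663284 (7.7913 µM, set 4), a quinone that inhibits the CDC25 phosphatases, had 51889 and 43009 counts in its wells and a median over all genes of -0.57. Its G2/M median was -0.87, with 8 genes lower and 2 higher of 56 beside 6.2% and 2.12% of all genes, and its NRF2 median -0.19, and the part of its low totals in these values was not tested.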

How the data were processed

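The authors aligned the transcript reads with BWA (bwa-mem) to a transcriptome of hg19 (UCSC known genes) and deposited a table of counts per gene symbol for each plate. A read was counted where its best alignments on the expected strand fell in 1 gene only. The version of BWA is not given in the sources used here. ERCC spike-in rows were left out. The members and the gene lists were chosen with earlier results of these data known. In R 4.3.3, each compound was compared with the 4 DMSO wells of its set and with the wells of the other compounds. The latter were pooled as a group, duplicates included, although other compounds are not replicates of a condition. The test was the quasi-likelihood test of edgeR 4.0.16 with TMM scaling and the plate as a term. It followed edgeR's filter on low counts. The fit against DMSO also held the 4 untreated wells as a separate group, which entered the filter and the estimate of the spread. With only compound and DMSO wells, 237 genes were called for palbociclib and 892 for ryuvidine. The Benjamini-Hochberg adjustment ran over every gene tested. DESeq2 1.42.0 and limma 3.58.1 (voom) were alternatives, with others of filter, scaling and wells left out. The scripts were tested on simulated counts.

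The plate pairs the wells: deviations of wells of the same plate from their group means had correlations of 0.52 to 0.66 in the set of palbociclib and 0.49 to 0.64 in that of ryuvidine. Those of different plates were below -0.51. Each group mean spans both plates, so these negative values mirror the positive ones and add no separate support. Named genes were CCNB1 and E2F1, the 10 largest rises and falls among called genes that averaged 20 CPM or more in the group of higher level and had both wells outside the range of the DMSO wells, up to 6 called and the 4 most abundant genes of each list, and the 5 of smallest p in each direction against the other compounds. Genes named outside this rule were chosen after their values were seen, and a few that the rule names are not reported here. CPM were computed from the deposited counts, deviations with a prior count of 2. Counting intervals (95%, exact Poisson) and floors of 3 counts cover counting error only.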

Additional observations from a re-analysis of the deposited data

Results flagged for a closer look

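Of 294 groups of 4 control wells examined for the genes named here, 11 held a well far from the other 3, where chance flags about 1 in 20 groups. Among DMSO wells, HMOX1 was at 212 CPM in 1 well and 149 to 153 CPM in the others, MT1G at 189 CPM against 83.6 to 95.0 CPM, NQO1 (named only here) at 426 CPM against 213 to 241 CPM, and ANGPTL4 at 16.4 CPM against 46.3 to 51.0 CPM. LCN2 was at 1.49 CPM and PNLIPRP3 at 2.59 CPM in 1 DMSO well and at 0 in the others. Among untreated wells, NUF2 was at 80.8 CPM in 1 well against 23.8 to 29.5 CPM, TROAP at 56.8 CPM against 77.2 to 79.8 CPM, PFKFB4 at 157 CPM against 98.9 to 107 CPM, DUSP5 at 10.6 CPM against 27.4 to 28.6 CPM, and ADM2 at 0.966 CPM against 0.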

How the results depend on the processing

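The counts of genes called against DMSO moved most with the plate term and the wells of the compound. Without the plate as a block that pairs the wells, 37 genes were called for palbociclib against DMSO in place of 259, and 208 for ryuvidine in place of 933. Against the other compounds the block left out gave 26 in place of 45 and 178 in place of 352. Leaving out 1 well gave 93 to 233 calls for palbociclib and 354 to 877 for ryuvidine against DMSO, the lowest without a compound well, and 5 and 48 to 71 against the other compounds. For palbociclib against the other compounds, DESeq2 called 102, a minimum of 10 counts in 0.5 of the wells 79 and the wells of low depth left out 84. Against DMSO, limma-voom called 202 higher and 182 lower genes for palbociclib, in place of 94 and 165, and no filter on low counts 404 and 607 for ryuvidine, in place of 468 and 465. The cause was not tested. Some of these settings hold fewer wells or genes, but others hold more. Limma-voom, on all wells, tested 10037 genes for palbociclib in place of 7590. Without a filter 15052 genes were tested for ryuvidine in place of 8165. No well beside DMSO had low depth, so that setting gave no fit there. Among uncalled genes, CDK4 ran from -0.27 to 0.14 with 1 well left out (0.11 without DMSO well 2) and was 0.0080 with limma-voom. Against the other compounds MT2A ran from -0.37 to 0.0467 for palbociclib and MT1E from -0.0786 to 0.75 for ryuvidine. Of the genes named and called against DMSO, 36 of 53 for palbociclib and 41 of 87 for ryuvidine lost the call under at least 1 alternative, and against the other compounds 19 of 22 and 47 of 61. DESeq2 gave no adjusted p for some genes of low level, and those cases were not counted as lost. The low totals of the ryuvidine wells limit genes of low level.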

Other observations

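A list of hypoxia-induced genes was put together after the ryuvidine values were seen, so its counts are a description. Of 35 tested, 19 were lower with ryuvidine against DMSO, beside 5.7% of all tested genes. The other 16 were not called, and the median log2 fold change was -1.10. AK4, an adenylate kinase, was at 28.1 and 17.7 CPM against 90.7 to 173 CPM in DMSO and fell by 2.52 ± 0.32. NDRG1 was at 407 and 403 CPM against 1414 to 1853 CPM and fell by 1.94 ± 0.15, and the glycolytic enzymes PGK1 and TPI1 fell by 1.10 and 0.70. At -1.094, the median deviation of the list from the other compounds was the lowest of 92 with ryuvidine. Triapine (-1.093) and NSC 663284 (-1.082) were almost level with it. In the lapatinib wells of the same number on set 1 the list was at -0.34, rank 9 from the lowest. The part of the well number was not tested.

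With palbociclib, the list had a median of 0.20 against DMSO, and 30 of its 34 tested genes were not called. The other 4 were higher, beside 1.24% of all tested genes. They were IGFBP3 (0.88 ± 0.15), ALDOC (0.87 ± 0.22), AK4 (0.79 ± 0.21) and BNIP3L (0.45 ± 0.12), and their calls were lost under 3, 4, 5 and 7 of 15 alternative settings. Against the other compounds 0 of 35 genes were called, while 33 had a fold change above 0. The list's median deviation of 0.36 was the second highest of 92. In the triciribine wells of the same number on set 4 it was 0.23, rank 14 from the highest.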
